A study of Homo sapiens with 2 samples.

Results

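The genes described here are 7 ligands of the tumour necrosis factor (TNF) superfamily counted in OVCAR5 tumour cells: TNF, LTB, TNFSF10, TNFSF13B, TNFSF15, TNFSF9 and TNFSF14. They were chosen by their measured levels in the hashtag sets described below, in an earlier analysis of these data, so those levels are given as a description. They are 7 of the 36601 genes in the table and 7 of the 18 ligands of the superfamily looked up in it. OVCAR5 is an established human ovarian carcinoma line. Tumours of the line were raised in NSG-b2m-/- mice, an immunodeficient strain without beta-2 microglobulin, then harvested and dissociated, and the cells were held ex vivo for 6 h with or without cytokines. Every cell bore a construct that reports interferon gamma (IFN-gamma) sensing, and sorting kept the CFP-positive cells, called bystanders in the labels.

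The labels list 5 entries with 100 ng/ml IFN-gamma and 10 ng/ml TNF alpha, 5 with 10 ng/ml TNF alpha and 5 unstimulated, all in 1 pooled droplet library whose cells bear antibody hashtags. No label ties a hashtag to a treatment. Of 3538 kept cells, 3144 showed 1 clear pair of hashtags, and the 15 pairs are called hashed samples below. An earlier analysis sorted the pairs into 3 sets by their expression, and those sets are used here under the names IFN-gamma plus TNF-like, TNF-like and unstimulated-like. Since the sets were inferred from measured values, every difference between them is a description, with no test, no mean over a set and no p-value. The hashed samples are also not shown to be separate tumours: the title speaks of a pool of 5 tumours.

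Levels are summed UMIs (unique molecular identifiers, 1 per captured RNA molecule) per 10000 UMIs of the hashed sample, and their exact 95% Poisson intervals reflect counting error alone. A level summed over a sample does not tell more cells with a transcript from more transcripts per cell, which the shares of cells further on address. The hashed samples held 49 to 630 cells and 582102 to 7324691 UMIs, with median depths of 10942 to 12405 UMIs per cell. Among genes looked up to check the names of the sets, IRF1 and NFKBIA stood as follows. The sets were inferred from expression, so a separation by such genes may be built in. IRF1, a transcription factor induced by IFN-gamma, stood at 36.6 to 42.6 in IFN-gamma plus TNF-like samples, at 1.84 to 4.01 in TNF-like samples and at 0.738 to 1.08 in unstimulated-like samples. NFKBIA, a feedback inhibitor of NF-kB and one of its direct targets, stood at 16.6 to 20.1, 10.5 to 15.9 and 1.12 to 1.47 in the same sets.

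TNF superfamily ligands are mostly trimeric proteins on the cell surface, often shed, that bind receptors of the TNF receptor superfamily on neighbouring cells. Those receptors recruit adaptors that lead to NF-kB activation or, for receptors with a death domain, to caspase activation. Immune cells are the best known source of these ligands. In carcinoma, tumour cells can be targets of TNF and TRAIL as well as producers of some ligands, and NF-kB and interferon-activated STAT and IRF factors are known regulators of several of these genes.

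The bases just before the start sites give a view of the sequence these regulators read. RefSeq starts were found for 7 of 7 ligands (10 starts, GRCh38.p14), and 250 bases upstream of each were searched on both strands for the NF-kB consensus, for the core of the interferon-stimulated response element (ISRE, GAAANNGAA) and for the gamma-activated site (GAS, TTCNNNGAA). Over 35116 upstream windows of the same length, the NF-kB consensus was found in 5.21%, the ISRE core in 6.88% and the GAS in 6.57%. The ISRE core is a shortened form of the full element. The windows below show the match in capitals within 30 bases, read 5′ to 3′ on the strand of the gene.
LTB, NF-kB consensus read on the opposite strand, chr6:31582493-31582522, minus strand: caggggtgtgcGGAAAGTCCCagccaggtg
LTB, GAS, chr6:31582572-31582601, minus strand: ttcttccccagTTCAGAGAAcccaggcatc
TNFSF14, NF-kB consensus, chr19:6670333-6670362, minus strand: agggaaagctgGGGGCTCCCCactgcactt
TNFSF10, ISRE core read on the opposite strand, chr3:172523598-172523627, minus strand: gaggagcttctTTCAGTTTCcctcctttcc
TNFSF10, ISRE core read on the opposite strand, chr3:172523466-172523495, minus strand: aaaacaactcaTTCGCTTTCatttcctcac
TNFSF13B, ISRE core, chr13:108269636-108269665, plus strand: ttacaaaaactGAAAGTGAAatgaggaaga
TNFSF9, ISRE core, chr19:6530821-6530850, plus strand: ttggaaggccgGAAACGGAAaggagagcga

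Relative to the RefSeq start, the LTB matches lay at -86 to -77 and -165 to -157, the TNFSF14 match at -191 to -182, the TNFSF10 matches at -186 to -178 and -54 to -46, and the TNFSF9 match at -194 to -186. The TNFSF13B match lay at -71 to -63 of its second listed start, which is inside the gene as GENCODE draws it. The NF-kB matches of LTB and TNFSF14 and the nearer TNFSF10 match also lie inside the GENCODE bounds of their genes, whose starts are farther upstream than those in RefSeq. No 2 of these matches overlap. A match is a run of letters, not a bound site. TNF and TNFSF15 had none of the 3 patterns in these windows, which says only that these exact letters are missing there. The TNFSF15 window, chr9:114792531-114792780, also lies inside the GENCODE bounds of its gene. The bases before the GENCODE start of TNFSF15, farther upstream, were not searched. The 250 bases before the TNF start are shown because TNF was the ligand with no count in any unstimulated-like sample.
TNF upstream, chr6:31575315-31575564, plus strand: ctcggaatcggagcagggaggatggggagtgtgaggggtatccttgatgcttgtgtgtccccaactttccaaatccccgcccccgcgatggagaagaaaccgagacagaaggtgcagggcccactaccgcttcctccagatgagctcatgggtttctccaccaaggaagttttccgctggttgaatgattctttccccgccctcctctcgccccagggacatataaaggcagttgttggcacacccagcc

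TNF and LTB were seen in samples of both cytokine-like sets and were at or near 0 in unstimulated-like samples. TNF encodes the founding cytokine of the family, the ligand of TNFRSF1A and TNFRSF1B, and lies on chromosome 6 at 31575567 to 31578336 on the plus strand (GRCh38, GENCODE 29). The TNF level was 0.0556 in HTO2+HTO7, 0.0349 in HTO3+HTO6, 0.0462 in HTO3+HTO9, 0.0751 in HTO4+HTO6 and 0.134 in HTO4+HTO9 among IFN-gamma plus TNF-like samples. It was 0.0575 in HTO2+HTO6, 0.0539 in HTO2+HTO10, 0.0344 in HTO3+HTO5, 0.0560 in HTO3+HTO8 and 0.0328 in HTO4+HTO8 among TNF-like samples, and 0 in all 5 unstimulated-like samples. The cytokine-like sets overlapped, and every one of their samples lay above the unstimulated-like samples. These are small numbers of molecules: 64 UMIs in IFN-gamma plus TNF-like samples, 81 in TNF-like samples and 0 of 11722279 UMIs in unstimulated-like samples. Over that pooled set 3 UMIs would be a level of 0.00256. Single samples are less well bounded: HTO3+HTO7 held 907526 UMIs, and the 0.0344 of HTO3+HTO5 rests on 2 UMIs. TNF protein added to the culture is not counted by this assay, which reads RNA.

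LTB encodes lymphotoxin beta, which anchors lymphotoxin alpha at the cell surface and signals through LTBR. It lies on chromosome 6 at 31580525 to 31582522 on the minus strand, 2189 bases from TNF. The LTB level was 2.03 in HTO2+HTO7, 1.79 in HTO3+HTO6, 0.848 in HTO3+HTO9, 0.762 in HTO4+HTO6 and 1.76 in HTO4+HTO9 among IFN-gamma plus TNF-like samples. It was 2.93 in HTO2+HTO6, 2.39 in HTO2+HTO10, 1.29 in HTO3+HTO5, 3.30 in HTO3+HTO8 and 3.16 in HTO4+HTO8 among TNF-like samples. It was 0.0852 in HTO2+HTO5, 0.0322 in HTO2+HTO8, 0.198 in HTO3+HTO7, 0.107 in HTO4+HTO7 and 0.0472 in HTO4+HTO10 among unstimulated-like samples. All 10 cytokine-like samples lay above all 5 unstimulated-like samples. The TNF-like samples were the higher of the cytokine-like sets except for HTO3+HTO5, the sample of fewest cells, which lay within the range of the IFN-gamma plus TNF-like samples. Without HTO3+HTO5 the LTB levels of IFN-gamma plus TNF-like samples were all below those of TNF-like samples.

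LTA, the third gene of this cluster and the partner of LTB in the membrane complex, lies 1243 bases before TNF. It had 22 UMIs in all kept cells, and its level was at most 0.00805 in IFN-gamma plus TNF-like samples, 0.0108 in TNF-like samples and 0.0110 in unstimulated-like samples. No hashed sample had more than 4 UMIs of LTA, so no order of the sets can be read. LST1, on the other side of LTB, was seen with 40 UMIs in hashed samples.

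**Figure D1:**
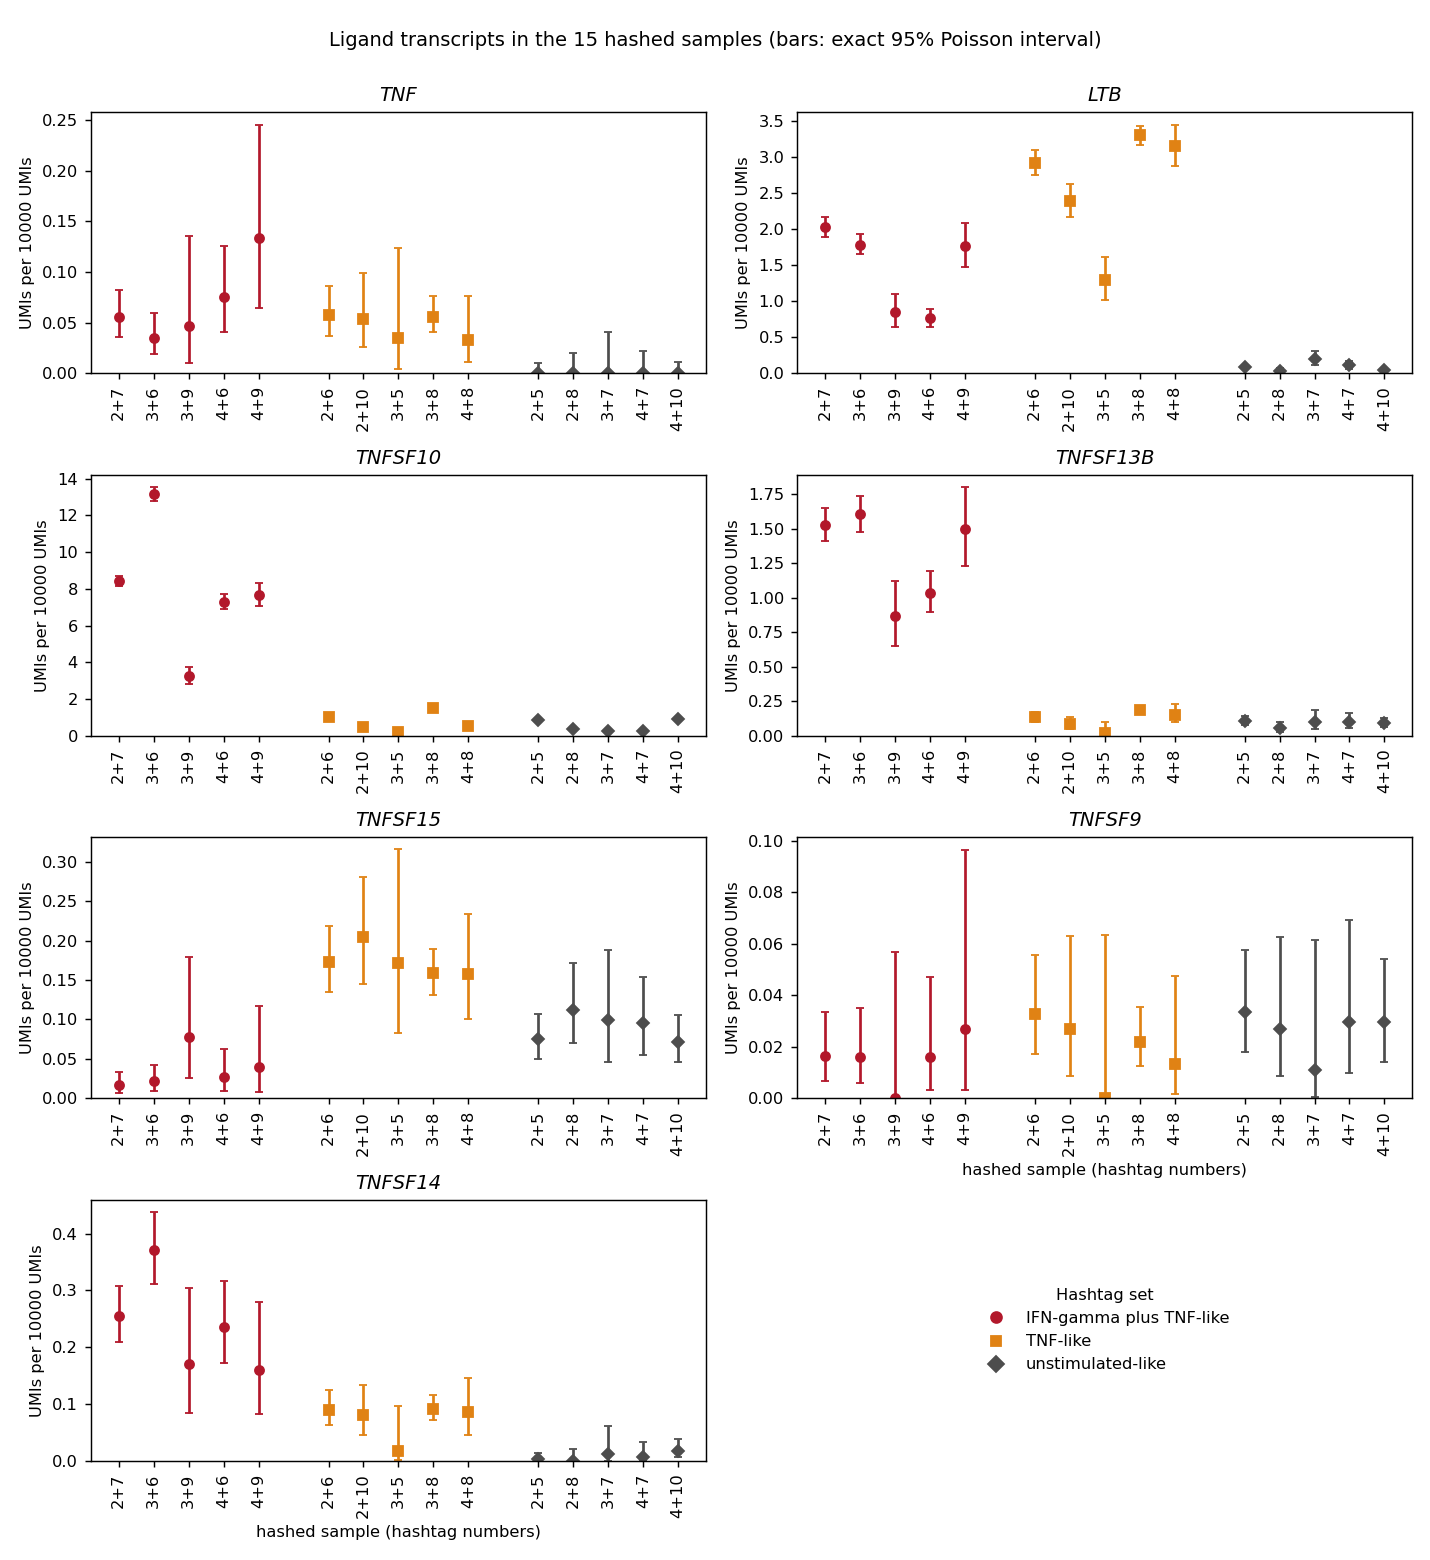
Level of each ligand transcript in UMIs per 10000 UMIs (vertical axes, linear, from 0) in the 15 hashed samples, named by their hashtag numbers, with exact 95% Poisson intervals as bars. TNF is at 0 in all 5 unstimulated-like samples, LTB is high in both cytokine-like sets, TNFSF10, TNFSF13B and TNFSF14 are highest in the IFN-gamma plus TNF-like set, and TNFSF15 is highest in the TNF-like set.

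TNFSF10 and TNFSF13B were the ligands with high levels in the IFN-gamma plus TNF-like samples and low levels in both other sets. TNFSF10 encodes TRAIL, which triggers apoptosis through the death receptors TNFRSF10A and TNFRSF10B, and lies on chromosome 3 at 172505508 to 172523507 on the minus strand. The TNFSF10 level was 8.43 in HTO2+HTO7, 13.2 in HTO3+HTO6, 3.25 in HTO3+HTO9, 7.30 in HTO4+HTO6 and 7.68 in HTO4+HTO9 among IFN-gamma plus TNF-like samples. It was 1.00 in HTO2+HTO6, 0.495 in HTO2+HTO10, 0.189 in HTO3+HTO5, 1.51 in HTO3+HTO8 and 0.538 in HTO4+HTO8 among TNF-like samples. It was 0.836 in HTO2+HTO5, 0.375 in HTO2+HTO8, 0.253 in HTO3+HTO7, 0.267 in HTO4+HTO7 and 0.906 in HTO4+HTO10 among unstimulated-like samples. The TNF-like and unstimulated-like samples overlapped, and the lowest IFN-gamma plus TNF-like sample was above all 10 of them.

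Within each set the largest samples by cell number had the highest TNFSF10 levels, but in no set did the full order of levels follow cell number. The hashed samples with the 2 largest cell numbers in a set were also the 2 highest in TNFSF10 in all 3 sets: HTO2+HTO7 (347 cells) and HTO3+HTO6 (300 cells), HTO3+HTO8 (630 cells) and HTO2+HTO6 (320 cells), and HTO2+HTO5 (304 cells) and HTO4+HTO10 (291 cells). This was noticed after the values were seen. TNFSF10 was the only one of the 7 ligands with this order, which 1.1% of all genes with a mean level of at least 0.01 had (143 of 12952). In the TNF-like set the level in HTO3+HTO8 was 1.51 with an interval clear of the others, and in the unstimulated-like set 0.906 and 0.836 stood over 0.253 to 0.375. In the IFN-gamma plus TNF-like set the gap was small: HTO2+HTO7 stood little above the 7.68 of HTO4+HTO9, a sample of 64 cells. The part that cell number or tumour of origin plays in these levels was not tested.

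**Figure D2:**
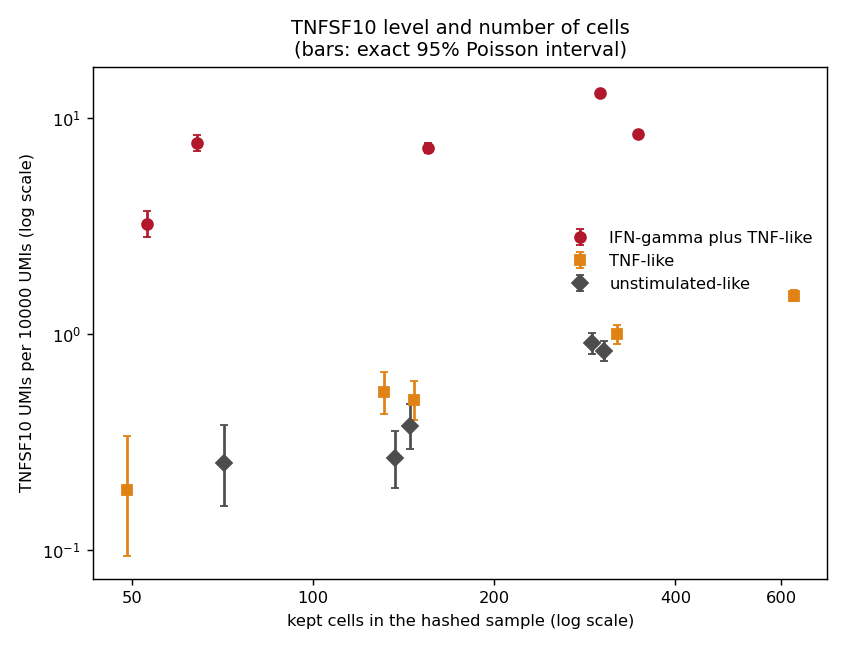
TNFSF10 level in UMIs per 10000 UMIs (vertical log axis, exact 95% Poisson intervals as bars) against the number of kept cells (horizontal log axis) in the 15 hashed samples, with 1 symbol per set. IFN-gamma plus TNF-like samples lie above the others at every cell number, and within each set the 2 samples with most cells are the highest.

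TNFSF13B encodes BAFF, a survival factor for B cells, and lies on chromosome 13 at 108251240 to 108308484 on the plus strand. The TNFSF13B level was 1.53 in HTO2+HTO7, 1.60 in HTO3+HTO6, 0.863 in HTO3+HTO9, 1.04 in HTO4+HTO6 and 1.5 in HTO4+HTO9 among IFN-gamma plus TNF-like samples. It was 0.133 in HTO2+HTO6, 0.0808 in HTO2+HTO10, 0.0172 in HTO3+HTO5, 0.184 in HTO3+HTO8 and 0.151 in HTO4+HTO8 among TNF-like samples. It was 0.106 in HTO2+HTO5, 0.0536 in HTO2+HTO8, 0.0992 in HTO3+HTO7, 0.101 in HTO4+HTO7 and 0.0914 in HTO4+HTO10 among unstimulated-like samples. The IFN-gamma plus TNF-like samples were separate from the rest, while the TNF-like and unstimulated-like samples overlapped. The lowest value, in HTO3+HTO5, is a single UMI.

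TNFSF14 stood in 3 steps, highest in IFN-gamma plus TNF-like samples, lower in TNF-like samples and near 0 in unstimulated-like samples. It encodes LIGHT, which binds LTBR and TNFRSF14 (HVEM) and costimulates T cells, and lies on chromosome 19 at 6661253 to 6670588 on the minus strand. The TNFSF14 level was 0.255 in HTO2+HTO7, 0.370 in HTO3+HTO6, 0.170 in HTO3+HTO9, 0.236 in HTO4+HTO6 and 0.160 in HTO4+HTO9 among IFN-gamma plus TNF-like samples. It was 0.0900 in HTO2+HTO6, 0.0808 in HTO2+HTO10, 0.0172 in HTO3+HTO5, 0.0915 in HTO3+HTO8 and 0.0854 in HTO4+HTO8 among TNF-like samples. Unstimulated-like samples had 9 UMIs of TNFSF14 in all, with levels of 0 in HTO2+HTO8 to 0.0177 in HTO4+HTO10. The IFN-gamma plus TNF-like samples did not overlap with the others. HTO3+HTO5, with 1 UMI, kept the TNF-like set from standing clear of the unstimulated-like set.

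TNFSF15 had its highest levels in the TNF-like set, and IFN-gamma plus TNF-like samples were all below it. It encodes TL1A, the ligand of the death receptor TNFRSF25, which the decoy receptor TNFRSF6B also binds, and lies on chromosome 9 at 114784635 to 114806126 on the minus strand. The TNFSF15 level was 0.0162 in HTO2+HTO7, 0.0215 in HTO3+HTO6, 0.0771 in HTO3+HTO9, 0.0268 in HTO4+HTO6 and 0.0401 in HTO4+HTO9 among IFN-gamma plus TNF-like samples. It was 0.173 in HTO2+HTO6, 0.205 in HTO2+HTO10, 0.172 in HTO3+HTO5, 0.158 in HTO3+HTO8 and 0.158 in HTO4+HTO8 among TNF-like samples. It was 0.0749 in HTO2+HTO5, 0.113 in HTO2+HTO8, 0.0992 in HTO3+HTO7, 0.0949 in HTO4+HTO7 and 0.0708 in HTO4+HTO10 among unstimulated-like samples. The TNF-like samples stood clear of both other sets in level. In the share of cells with a UMI, given further on, they overlapped with the unstimulated-like samples. Against the unstimulated-like samples, the IFN-gamma plus TNF-like samples were lower except for HTO3+HTO9, where 5 UMIs in 53 cells gave 0.0771.

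TNFSF9 was too sparse to order the sets. It encodes 4-1BB ligand, which costimulates T cells through TNFRSF9, and lies on chromosome 19 at 6530999 to 6535928 on the plus strand. Its level was 0 to 0.0267 in IFN-gamma plus TNF-like samples (18 UMIs), 0 to 0.0325 in TNF-like samples (36 UMIs) and 0.0110 to 0.0336 in unstimulated-like samples (34 UMIs). The 3 ranges overlapped, and a difference was not detectable at this depth. CD70, the next gene after TNFSF9 and a ligand of the same superfamily, had 30 UMIs in all kept cells. C3, which encodes the central complement component and lies 7116 bases beyond TNFSF14, stood at 0.416 to 1.08, 0.382 to 0.71 and 0.193 to 0.478 in IFN-gamma plus TNF-like, TNF-like and unstimulated-like samples.

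Counts of ligands whose sets do not overlap are set beside those over all genes of mean level at least 0.01, and because the sets were inferred from these same values nothing further is read from them. IFN-gamma plus TNF-like samples were all above unstimulated-like samples for 5 of 7 ligands (TNF, LTB, TNFSF10, TNFSF13B and TNFSF14), against 7.06% of all genes. They were all below for 0 of 7, against 16.3% of genes. TNF-like samples were all above unstimulated-like samples for 3 of 7 (TNF, LTB and TNFSF15), against 3.24% of genes, and all below for 0 of 7, against 3.51%. IFN-gamma plus TNF-like samples were all above TNF-like samples for 3 of 7 (TNFSF10, TNFSF13B and TNFSF14), against 4.75%, and all below for 1 of 7 (TNFSF15), against 7.52%. Several of these calls depended on single samples or on the filters. The 3 of 7 higher in TNF-like than in unstimulated-like samples became 4 of 7, with TNFSF14 joining, without HTO3+HTO5 (49 cells) or without HTO4+HTO10 (291 cells), and with TMM library sizes or no filter on cells. They became 2 of 7 with the mean of levels per cell, which lost TNFSF15, and without cells holding an immune marker UMI, which lost TNF. Such cells were 1661 of 3538 kept cells, and CD68 alone was seen in 1063 cells. They held 53.2% of all UMIs of kept cells and 47.1% (TNFSF9) to 59.5% (TNFSF14) of the UMIs of each ligand, so leaving them out also removes much of the counts. A mitochondrial limit of 10% also gave 2 of 7, with TNF and TNFSF15 lost and TNFSF14 gained. Without HTO3+HTO5, LTB joined TNFSF15 among the ligands lower in IFN-gamma plus TNF-like than in TNF-like samples, which made 2 of 7. Under the mitochondrial limit of 10% LTB took the place of TNFSF15 there. Without cells holding an immune marker UMI, TNFSF14 was lost from those higher in IFN-gamma plus TNF-like than in TNF-like samples, which left 2 of 7. Without HTO3+HTO9 (53 cells), 1 of 7 ligands, TNFSF15, was lower in IFN-gamma plus TNF-like than in unstimulated-like samples, and without HTO3+HTO7 (71 cells) that ligand was TNFSF9, at a few UMIs per sample. A span of at least 4-fold between the extreme hashed samples, with a lower bound of at least 2, was also counted. It was found for all 5 ligands with a mean level of at least 0.05, against 10.1% of all such genes. Those 5 are LTB, TNFSF10, TNFSF13B, TNFSF15 and TNFSF14, and TNF (mean 0.0387) and TNFSF9 (mean 0.0200) fell below the minimum. TNFSF14 (mean 0.106) reached it through its IFN-gamma plus TNF-like samples. The ligands were chosen by their levels in these same samples, so a wide span was built in and nothing further is read from it.

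How many cells carried each transcript was compared after thinning every cell to 5000 UMIs, which left 2928 cells with a pair and left out 64 paired cells of the IFN-gamma plus TNF-like set, 96 of the TNF-like set and 56 of the unstimulated-like set. TNFSF10 and TNFSF13B were seen in a large share of the cells of IFN-gamma plus TNF-like samples. TNFSF10 had a UMI in 46.9% to 88.2% of cells in IFN-gamma plus TNF-like samples, in 13.3% to 33.4% in TNF-like samples and in 9.09% to 21.9% in unstimulated-like samples. TNFSF13B was seen in 33.6% to 47.2%, 0% to 7.30% and 2.92% to 4.78% of cells in the same sets. Without thinning the ranges in IFN-gamma plus TNF-like samples were 62.3% to 92.7% for TNFSF10, 52.9% to 66.0% for TNFSF13B, 4.33% to 14.1% for TNF and 10.9% to 27.7% for TNFSF14.

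LTB was unevenly spread, with many copies in some cells and none in most. It was seen in 15.4% to 33.9% of cells in IFN-gamma plus TNF-like samples, 17.8% to 38.3% in TNF-like samples and 1.48% to 4.76% in unstimulated-like samples. Cells with any LTB carried on average 2.36 to 3.90 UMIs in IFN-gamma plus TNF-like samples and 2.38 to 5.26 in TNF-like samples. The highest cell had 44 UMIs of LTB out of 5000. Cells with any TNFSF10 carried on average 3.35 to 7.28 UMIs in IFN-gamma plus TNF-like samples and 1.00 to 2.38 in TNF-like samples. The tenth of cells (10%) with most LTB held 63.1% to 87.5% of all LTB UMIs in IFN-gamma plus TNF-like samples and 63.4% to 78.9% in TNF-like samples. For TNFSF10 that share was 30.5% to 45.5% in IFN-gamma plus TNF-like samples and 64.6% to 76.7% in TNF-like samples, where it overlapped with that of LTB. The variance of LTB counts over their mean, which would be near 1 for counting error alone, was 4.24 to 9.68, 4.14 to 10.4 and 0.969 to 1.58 in the 3 sets. In IFN-gamma plus TNF-like samples it was 4.43 to 6.03 for TNFSF10, within the range of LTB, and 0.946 to 2.35 for TNFSF13B.

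TNF was seen in few cells of any sample: 1.74% to 6.78% in IFN-gamma plus TNF-like samples, 2.14% to 3.10% in TNF-like samples and none in unstimulated-like samples, with at most 2 UMIs in a thinned cell. TNFSF14 was seen in 4.08% to 13.9%, 2.14% to 5.52% and 0% to 1.85% of cells in these sets. TNFSF15 was seen in 0% to 4.08%, 4.27% to 5.86% and 2.96% to 4.76%, so its TNF-like and unstimulated-like ranges overlapped. Without thinning these 2 ranges were 6.12% to 12.2% and 6.53% to 9.86%. Cells with TNFSF15 in TNF-like samples held up to 4 UMIs after thinning and up to 15 before. TNFSF9 was at most at 2.1%, 1.43% and 2.05%. Free RNA in the droplets adds UMIs to cells that lack a transcript, and the pool held no cell type known to be without these transcripts. All hashed samples shared 1 library, so the shares in unstimulated-like samples, 0% for TNF and 0% to 1.85% for TNFSF14, show what such RNA and true transcripts gave together there.

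**Figure D3:**
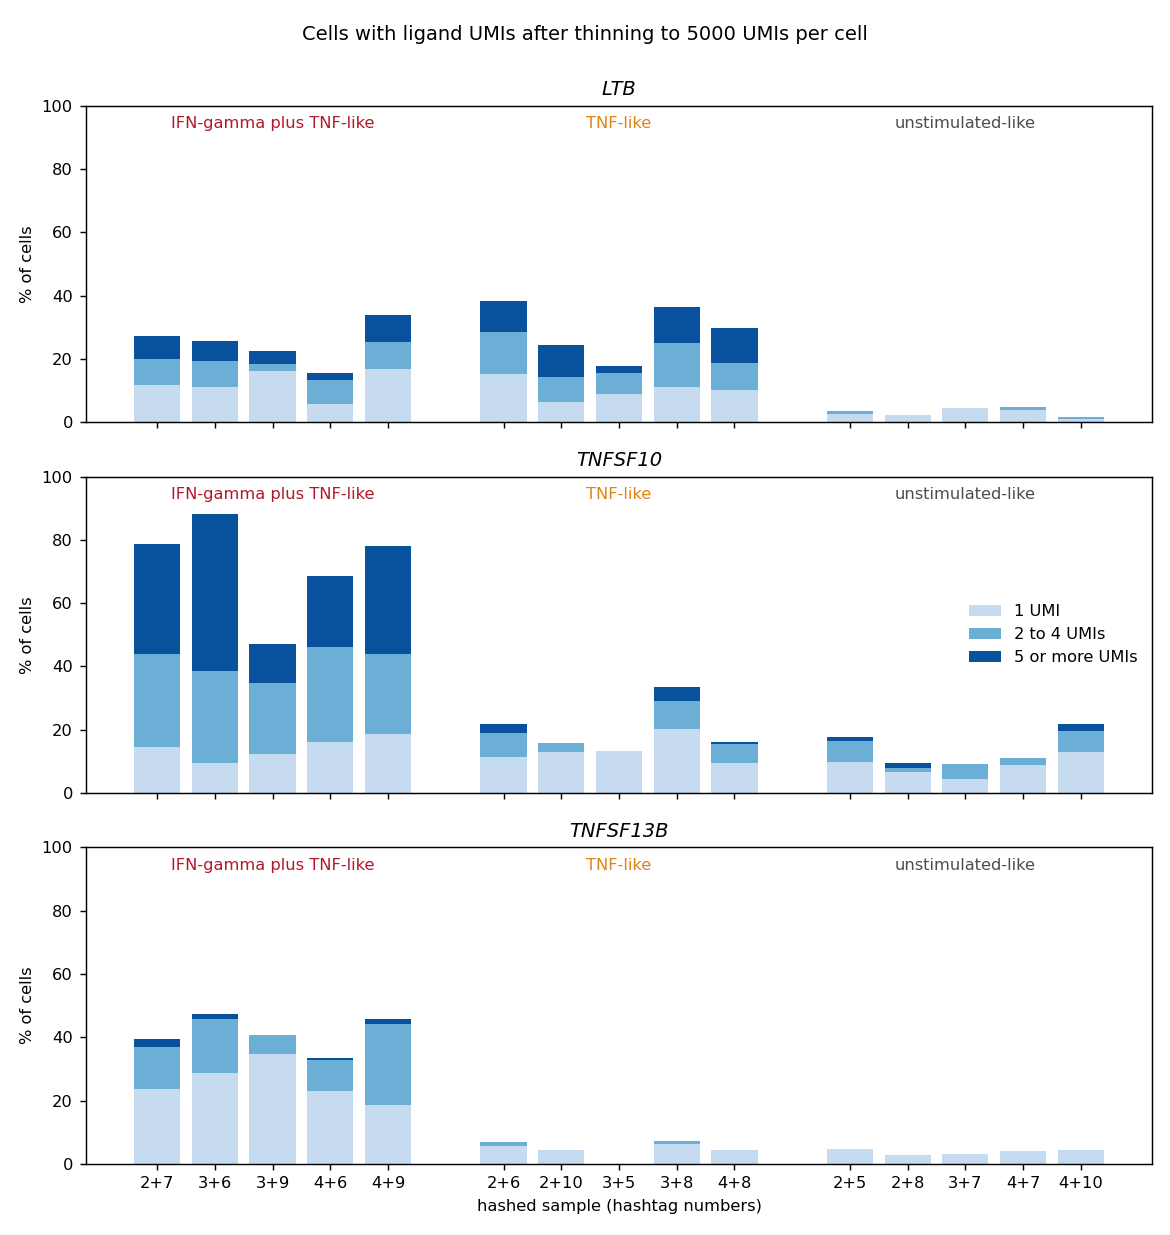
Share of cells (vertical axes, percent) with 1, 2 to 4, or 5 or more UMIs of LTB, TNFSF10 and TNFSF13B after thinning to 5000 UMIs per cell, in each hashed sample. TNFSF10 reaches 46.9% to 88.2% of cells in IFN-gamma plus TNF-like samples, whereas LTB stays at or under 38.3% in every sample. Both genes have cells with 5 or more UMIs in IFN-gamma plus TNF-like samples.

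The number of ligand genes seen per cell was highest in the IFN-gamma plus TNF-like set. After thinning, 3 or more of the 7 ligand genes had a UMI in 6.12% to 23.7% of cells in IFN-gamma plus TNF-like samples, 0% to 4.92% in TNF-like samples and 0% to 0.370% in unstimulated-like samples. Cells with none made up 5.56% to 24.5%, 37.7% to 68.9% and 70.4% to 81.8%. The ranges of the 3 sets did not overlap for cells with none. The ligands were chosen by their levels in these sets, so this tally restates those levels and nothing further is read from it.

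**Figure D4:**
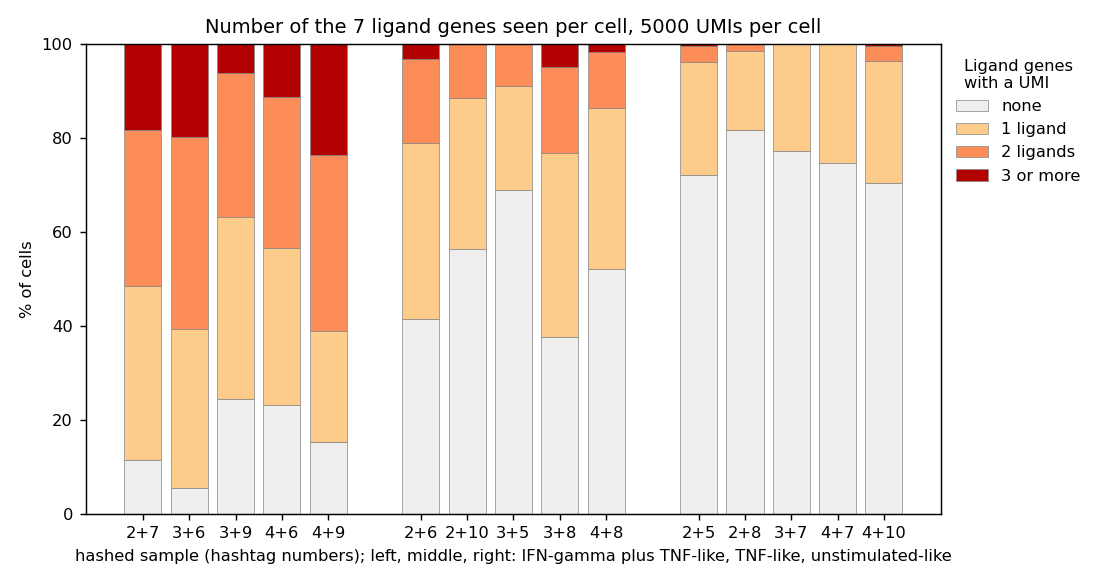
Share of cells (vertical axis, percent) with UMIs of none, 1, 2 or at least 3 of the 7 ligand genes after thinning to 5000 UMIs per cell, in each hashed sample, with the IFN-gamma plus TNF-like samples at the left, TNF-like in the middle and unstimulated-like at the right. Cells with none range from 5.56% to 24.5%, 37.7% to 68.9% and 70.4% to 81.8% in that order.

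In IFN-gamma plus TNF-like samples, the number of cells with both TNFSF10 and TNFSF13B was above the product of their shares. There 313 cells had both, where the product of the shares in each sample sums to 282 cells, and the count was above the product in 5 of 5 samples. The Spearman rho of their counts over cells was 0.176 to 0.442 in those samples. In TNF-like samples 35 cells had both, where the product gives 20.5, above it in 4 of 5 samples. In unstimulated-like samples 8 cells had both, where the product gives 6.22, above it in 3 of 5 samples, with a rho of -0.072 to 0.102. LTB and TNFSF10 were together in 168 cells of IFN-gamma plus TNF-like samples, where the product gives 169, above it in 2 of 5 samples. TNF and LTB, the neighbours on chromosome 6, were together in 14 cells where the product gives 6.20 in IFN-gamma plus TNF-like samples, and in 21 cells where it gives 11.8 in TNF-like samples, above it in 4 of 5 samples of each set. Cells are not replicates, the cells of a sample share a library and counts this sparse give wide counting error, so these are descriptions.

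The genes with profiles most like each ligand over the 15 hashed samples were taken by Pearson r of log2(level + 0.05) among genes of mean level at least 0.05, and the r carries no p because the samples share 1 library and fall into sets. For LTB these were BID, MAP4K4, BIRC3, IRAK2 and PTX3 (r 0.972 to 0.960). For TNFSF10 they were IFI35, EPSTI1, IFIT3, SAMHD1 and B2M (0.982 to 0.976). For TNFSF13B they were UBE2L6, JAK2, PSMB9, SP110 and CD74 (0.986 to 0.98). For TNFSF14 they were ICAM4, LYN, LINC02605, AF117829.1 and BAZ1A (0.979 to 0.968). TNFSF15 had lower values, with SQLE, EIF4G2, UTP3, ZFAND5 and RAI14 at 0.922 to 0.879. The 5 lists share no gene. With a pseudocount of 0.01, 4 of the 5 genes stayed for LTB, TNFSF10 and TNFSF13B, 3 of 5 for TNFSF15 and 2 of 5 for TNFSF14, so the last names depend on that choice.

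Of the 11 other ligands of the superfamily, 9 had at least 1 UMI in the kept cells, led by TNFSF13 with 415 and TNFSF12 with 187. CD40LG and TNFSF8 had 0 UMIs, FASLG and TNFSF11 1 each, TNFSF4 9, EDA 35 and TNFSF18 95. TNFSF18, the ligand of GITR, stood at 0 to 0.0185 in IFN-gamma plus TNF-like samples, 0.0341 to 0.0854 in TNF-like samples and 0 to 0.0220 in unstimulated-like samples. Like TNFSF15 it was thus highest in the TNF-like set with no overlap. Its IFN-gamma plus TNF-like (10 UMIs) and unstimulated-like (8 UMIs) samples overlapped and gave no order. It was 1 of 11 other ligands with either call, but only TNFSF12, TNFSF13 and TNFSF18 among them had a mean level of at least 0.01. Over all genes of that level, 3.24% were higher in TNF-like than in unstimulated-like samples and 7.52% lower in IFN-gamma plus TNF-like than in TNF-like samples. TNFSF13 (APRIL, a relative of BAFF that also acts on B cells) stood at 0.0462 to 0.0995, 0.0344 to 0.106 and 0.0475 to 0.121, and TNFSF12 (TWEAK) at 0.0154 to 0.0536, 0.0328 to 0.0700 and 0.0237 to 0.0536, both with overlap of all sets. TNFSF12 and TNFSF13 overlap a readthrough gene of both, so their counts are uncertain.

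Of the 15 receptors looked up, 11 were counted in every hashed sample. The TRAIL death receptor TNFRSF10B stood at 0.478 to 0.588 in IFN-gamma plus TNF-like samples, 0.458 to 0.709 in TNF-like samples and 0.231 to 0.307 in unstimulated-like samples, while TNFRSF10A overlapped among all sets at 0.363 to 0.468, 0.361 to 0.466 and 0.297 to 0.408. The TRAIL decoy receptors TNFRSF10D and TNFRSF11B (osteoprotegerin) were lowest in IFN-gamma plus TNF-like samples, at 0.0268 to 0.0671 and 0.107 to 0.154, against 0.105 to 0.195 and 0.261 to 0.515 in TNF-like samples and 0.0774 to 0.145 and 0.204 to 0.507 in unstimulated-like samples. IFN-gamma plus TNF-like samples were thus all below the other sets for these decoys, while the TNF-like and unstimulated-like samples overlapped. These were 2 of 15 receptors, or 2 of the 11 with a mean level of at least 0.01. Of all genes at that level, 16.3% were lower in IFN-gamma plus TNF-like than in unstimulated-like samples, and 7.52% than in TNF-like samples. The receptor count is close to the first share, and nothing further is read from it. The remaining TRAIL decoy, TNFRSF10C, had 1 UMI in each set.

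TNFRSF1B, the second receptor for TNF, was 0.601 to 0.692, 0.250 to 0.429 and 0.0914 to 0.142 in the 3 sets, a step in each, whereas TNFRSF1A overlapped at 0.868 to 1.12, 0.795 to 1.08 and 0.943 to 1.23. LTBR, the receptor for LTB and TNFSF14, also overlapped at 0.778 to 1.06, 0.789 to 1.13 and 0.694 to 1.01. TNFRSF14, another receptor for TNFSF14, was 0.400 to 0.494, 0.236 to 0.330 and 0.154 to 0.248. TNFRSF6B, a soluble decoy that binds TNFSF14, TNFSF15 and FASLG, was 2.00 to 2.20, 1.41 to 1.68 and 0.813 to 1.07. TNFRSF9, the receptor of TNFSF9, was 0.139 to 0.274, 0.0722 to 0.179 and 0.0110 to 0.0415, and TNFRSF25, the receptor of TNFSF15, overlapped at 0.0154 to 0.0267, 0.0162 to 0.0687 and 0.00536 to 0.0415. TNFRSF13B and TNFRSF17, receptors of BAFF and APRIL on B cells, had 0 UMIs in the paired cells, and TNFRSF13C had 9. In all, 5 of 15 receptors were higher in IFN-gamma plus TNF-like than in unstimulated-like samples without overlap, against 7.06% of genes of mean level at least 0.01. For TNF-like over unstimulated-like samples it was 4 of 15, against 3.24%. For IFN-gamma plus TNF-like over TNF-like samples it was 3 of 15, against 4.75%. The sets were inferred from these data, so nothing further is read from these counts.

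**Figure D5:**
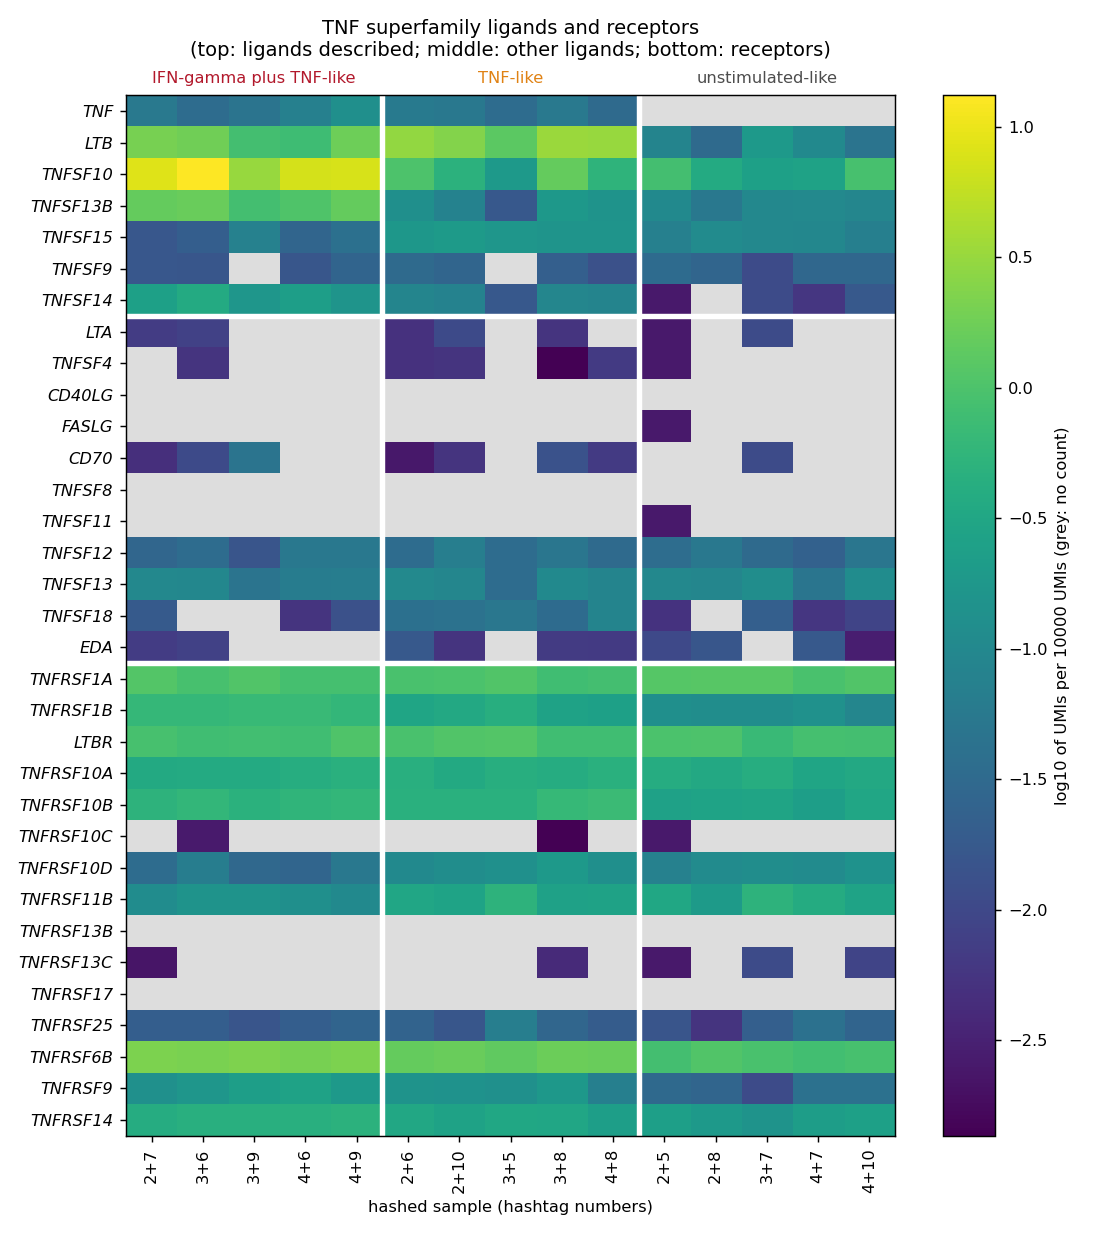
Level of the 7 ligands, the 11 other ligands and the 15 receptors in each hashed sample, coloured by log10 of UMIs per 10000 UMIs, with grey where no UMI was counted. TNFSF10 reaches 13.2 in HTO3+HTO6. The TRAIL decoys TNFRSF10D and TNFRSF11B are lowest in the IFN-gamma plus TNF-like set. Of all genes of mean level at least 0.01, 16.3% lie lower in that set than in the unstimulated-like set without overlap.

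Epithelial markers were present in nearly every kept cell, so they do not set the cells with ligand transcripts apart. Of 3538 kept cells, 3537 had a UMI of at least 1 of 4 epithelial markers (EPCAM, KRT8, KRT18 and KRT19), as did 1080 of 1081 cells with LTB and 1812 of 1812 with TNFSF10. The summed level of all 13 epithelial markers was 42.9 to 51.6, 47.6 to 70.0 and 74.7 to 91.1 in the 3 sets. PTPRC, the pan-leukocyte marker CD45, had 13 UMIs in 12 cells, which held 1 TNF, 37 LTB, 37 TNFSF10 and 9 TNFSF13B UMIs. Of the 10 markers of T or NK cells, 6 had no UMI at all (CD3D, CD3E, CD8B, CD2, NKG7 and GNLY). The list's level of 0.0154 to 0.0966, 0.0515 to 0.175 and 0.00593 to 0.0207 was nearly all CD69, with 323 UMIs. Myeloid markers overlapped among the sets at 0.381 to 0.609, 0.326 to 0.640 and 0.349 to 0.623, led by CD68 and LYZ. Cells of the mouse host could not be assessed, since only human genes were counted.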

How the data were processed

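Per the labels' protocols, hashtag antibodies marked the cells before pooling, sorting and 10x Genomics 3' library preparation. The authors deposited raw UMI counts, a single matrix with 5269 barcodes, 36601 genes and 10 hashtags. Cell Ranger 2.1.1 and GRCh38 are listed per the submitters' processing notes, but Cell Ranger 5.0.1 wrote the matrix per the file headers. Which version made the counts is unresolved. Collapsing to UMIs removes PCR copies, and 3' counting sees transcript ends, so isoforms were not separated.

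Cells with at least 1000 genes and at most 20% mitochondrial UMIs were kept (3538 cells). A cell joined its top pair of hashtags when the second reached 10 counts and 3 times the count of the third. In 394 kept cells no pair was clear. Doublets within a hashed sample were not sought. The members, the lists and the 3 sets were chosen with earlier results of these data known. The labels map no hashtag to a treatment, and so no test was run.

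Levels are summed UMIs per 10000 with exact 95% Poisson intervals, with 0 replaced by a floor of 3 counts in ratios. Named genes are the 7 ligands, the listed ligands and receptors, neighbours at the loci, and for each ligand of mean level at least 0.05 the 5 genes of highest Pearson r. Work used Python 3.11.15, NumPy 2.4.6, SciPy 1.17.1 and pandas 2.3.3, with TMM library sizes from edgeR 4.0.16 as an alternative. The hashtag pairing, level and span rules were tested on simulated data. Alternatives changed the filters on cells, the hashtag ratio, the scaling, the thinning and the samples used. Promoter sequences are from RefSeq (GRCh38.p14), and gene positions from GENCODE 29. The likeness of genes to TNFSF10, LTB and TNFSF13B within sets was computed and is not reported here.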

Additional observations from a re-analysis of the deposited data

Results flagged for a closer look

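In the unstimulated-like set, the TNFSF13B level of HTO2+HTO8 was 0.0536, from 10 cells with 1 UMI each. It was flagged for its gap below the other 4 samples, relative to the range of the set. In the TNF-like set, the TNFSF14 level of HTO3+HTO5 was 0.0172, a single UMI, flagged in the same way against the other 4. These were 2 of 21 combinations of ligand and set looked at, and chance flags about 1 in 20. The flags and that rate take no account of counting error or of the unequal sizes of the samples. Both flagged levels rest on few UMIs, and whether either gap exceeds counting error was not tested.

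Signal also lay in cells that no level above uses. The 7 ligands summed to 4.97 UMIs per 10000 UMIs in the kept cells without a clear pair of hashtags. In the 1731 removed barcodes, which failed the limits on genes or mitochondrial share, they summed to 3.44. Removed barcodes with a clear pair also had their highest TNFSF10 levels in the IFN-gamma plus TNF-like set, at 2.39 to 7.99 in IFN-gamma plus TNF-like, 0.303 to 1.80 in TNF-like and 0.251 to 0.984 in unstimulated-like samples. Their LTB levels were 0.137 to 0.610, 0.477 to 1.91 and 0 to 0.152 in the same sets, and TNF had 0 UMIs in the unstimulated-like set there as well.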

How the results depend on the processing

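The ligands counted as higher in TNF-like than in unstimulated-like samples (3) changed under 9 of 24 alternatives, to between 2 and 4: 4 with no filter on cells, with TMM library sizes, without the 4 smallest samples, without HTO3+HTO5 or without HTO4+HTO10, and 2 at the 10% mitochondrial limit, with the mean of levels per cell, without cells holding an immune marker UMI or at a mean level of at least 0.05 (added after seeing the data). Those higher in IFN-gamma plus TNF-like samples changed under 1 of 24 alternatives against each other set, to 4 against unstimulated-like samples at a mean level of at least 0.05 and to 2 against TNF-like samples without immune marker cells. The count lower in IFN-gamma plus TNF-like than in unstimulated-like samples was 0, and it was 2 with no filter on cells and 2 without the 4 smallest hashed samples (HTO3+HTO7, HTO4+HTO9, HTO3+HTO5 and HTO3+HTO9), and 0 to 1 when single samples were left out, 1 without HTO3+HTO9 or without HTO3+HTO7. The count lower in IFN-gamma plus TNF-like than in TNF-like samples was 1, and it was 2 with the mean of levels per cell, 2 without the 4 smallest, and 1 to 2 when single samples were left out, 2 without HTO3+HTO5. The cause was not tested beyond these samples. Of 14 results, all stayed within their counting intervals, or for counts within 1.5 times, under edgeR's TMM library sizes (which shifted log2 levels by -0.11 to 0.16), under a hashtag ratio of 10 (2995 cells) and with mitochondrial genes left out of the total. A mitochondrial limit of 10% left 732 cells and moved 6 of 14 results. Leaving out cells with an immune marker UMI (1661 cells, with 53.2% of all UMIs of kept cells) moved 4 of 14. Of 7 highest shares of cells, 5 moved beyond their intervals with no thinning and 3 with thinning to 3000 UMIs. A share rises with the depth kept per cell, so such movement is built in and these 2 settings do not test the shares. Of 5 lists of most alike genes, 2 moved with a pseudocount of 0.01. No paired analysis was possible because no treatment is assigned to any hashtag and no test was run. Ligands with few UMIs (TNF, TNFSF9, TNFSF14, TNFSF15) are limited by depth, and values from the hashed samples of 49 to 71 cells rest on few UMIs.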

Other observations

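Extremes of the smallest samples are common to many genes. HTO3+HTO5, the hashed sample with the fewest cells, had the lowest level of 5 of the 7 ligands in the TNF-like set (LTB, TNFSF10, TNFSF13B, TNFSF9 and TNFSF14), where 38.4% of all genes of mean level at least 0.01 were lowest, ties included. HTO3+HTO9, the next smallest, had the lowest level of 3 of the 7 in the IFN-gamma plus TNF-like set (TNFSF10, TNFSF13B and TNFSF9), where 31.9% of those genes were lowest.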
